A study of Mus musculus with 8 samples.

Results

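The regions described here are 7536 distal stretches of chromatin that carried a called H3K27ac peak in haematopoietic stem cells (HSCs) lacking retinoid X receptors and none in wild-type (WT) HSCs. They were chosen by merging overlapping H3K27ac peaks of both genotypes into 83138 regions, of which 52510 held peaks of both genotypes, 19859 of WT only and 10769 of the deletion only. Of those 10769, 9915 lay more than 1 kb from either end of every annotated protein-coding gene, and 7536 of these overlapped a peak in all 4 H3K4me1 libraries. The H3K27ac call and the presence of H3K4me1 in every library are therefore the rule itself, and are given below as description. The same steps gave 38913 distal regions acetylated in both genotypes and 13985 in WT only.

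The study mapped histone marks by CUT&RUN, in which an antibody guides a nuclease to marked nucleosomes so that their DNA is cut free and sequenced. The sample was Lin-cKit+Sca1+CD48-CD150+ HSCs sorted from the marrow of C57BL/6 mice aged about 10 months. RXRKO mice were VaviCre+Rxrabfl/fl (RxRa∆/∆;RxRb∆/∆ in the titles), with both receptor genes, Rxra and Rxrb, deleted by Vav-Cre, a Cre driver active in blood cells. WT mice were Rxrabfl/fl in the protocol but VavCre+ in the genotype label, so Cre itself may differ between the groups. HSCs of 4 or 5 mice were pooled and 7500 were used per assay. H3K4me1 was mapped in 2 WT and 2 RXRKO libraries, and H3K27ac and H3K4me3 in 1 library per genotype, so those marks have no replicates. No label says that the H3K4me1 replicates came from separate pools, so p-values measure the spread between these libraries, which may be technical. The sequencing depth is unknown.

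Enhancers are distal elements that raise transcription of genes at a distance. H3K4me1 marks enhancers whether or not they are active, H3K27ac is added to active enhancers and promoters by p300 and CBP, and H3K4me3 is the mark of promoters. RXRA and RXRB are nuclear receptors that pair with retinoic acid, liver X, PPAR, vitamin D and other receptors on repeats of the AGGTCA sequence, and recruit corepressors that remove histone acetylation or coactivators that add it.

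Most of the regions had no annotated start nearby, but 83 of them (1.10%) overlapped the promoter window of a RefSeq transcript, against 4.97% of the regions acetylated in both genotypes and 1.81% of those in WT only. Of the 85 genes concerned, 64 were long noncoding RNAs and 21 were protein-coding genes with a start away from their outer ends. The windows shown are 4 of those that lay largely inside a region. Gm33586, Gm39079 and Gm29483 lay in regions with H3K4me3 in RXRKO alone, and F630206G17Rik is shown as one with H3K4me3 in both genotypes. They are RefSeq sequences of 300 bases on GRCm38.p6 (mm10), 5′ to 3′ on the transcript's strand. Capitals mark AGGTCA, the GATA motif GATAA or the AP-1 motif TGANTCA on either strand.
Gm33586: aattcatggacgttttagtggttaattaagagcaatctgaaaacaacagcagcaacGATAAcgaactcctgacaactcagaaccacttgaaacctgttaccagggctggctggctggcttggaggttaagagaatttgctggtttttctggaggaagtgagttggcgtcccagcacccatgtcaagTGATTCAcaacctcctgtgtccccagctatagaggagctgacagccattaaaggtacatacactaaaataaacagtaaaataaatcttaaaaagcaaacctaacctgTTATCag
Gm39079: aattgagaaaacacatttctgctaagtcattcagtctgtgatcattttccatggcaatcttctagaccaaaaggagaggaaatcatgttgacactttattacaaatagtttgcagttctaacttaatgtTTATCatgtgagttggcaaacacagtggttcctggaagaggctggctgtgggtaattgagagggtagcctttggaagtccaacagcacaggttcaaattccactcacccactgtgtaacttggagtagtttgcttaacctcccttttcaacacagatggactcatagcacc
Gm29483: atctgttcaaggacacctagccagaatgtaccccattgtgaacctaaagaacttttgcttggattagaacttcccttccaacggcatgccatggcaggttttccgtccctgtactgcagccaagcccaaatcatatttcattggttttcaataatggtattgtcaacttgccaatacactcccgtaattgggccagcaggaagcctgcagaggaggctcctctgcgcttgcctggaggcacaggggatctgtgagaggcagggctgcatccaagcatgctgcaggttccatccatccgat
F630206G17Rik: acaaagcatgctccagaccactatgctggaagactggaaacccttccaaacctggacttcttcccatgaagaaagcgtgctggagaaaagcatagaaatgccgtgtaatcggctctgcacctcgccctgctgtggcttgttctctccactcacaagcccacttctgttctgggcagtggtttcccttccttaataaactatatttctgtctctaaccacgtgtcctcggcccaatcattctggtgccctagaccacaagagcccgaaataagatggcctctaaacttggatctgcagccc

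The Gm33586 window (chr7:112987545-112987844, plus strand) lay wholly within a region at chr7:112987400-112988165, 30.3 kb from Rassf10. That region ranked 14 among all by H3K27ac and had no H3K4me3 in WT within 2 kb of its midpoint, against 374 bp in RXRKO. H3K4me1 covered 462 and 501 bp of the same 4 kb window in WT replicates 1 and 2, and 787 and 1224 bp in RXRKO. The Gm39079 window (chr7:119620282-119620581, minus strand) had 263 bp in a region near Acsm1, which lay 92.6 kb from the nearest WT H3K27ac peak. It had no WT H3K4me3 and 1137 bp in RXRKO, while H3K4me1 was 1543 and 702 bp in WT and 1354 and 1873 bp in RXRKO, so the genotypes overlapped. The Gm29483 window (chr1:92730694-92730993, minus strand) was wholly inside a region near Otos with 307 bp of H3K4me3 in RXRKO alone and H3K4me1 of 1215 and 956 bp in WT against 1312 and 1589 bp in RXRKO. The F630206G17Rik window (chr11:45807833-45808132, plus strand), in a region near Clint1, had 1111 bp of H3K4me3 in WT against 1511 bp in RXRKO.

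Of the 46 windows with at least 150 bp in a region, 9 (19.6%) held AGGTCA on either strand, the half-site bound by RXR and its partners, against 16.2% of 26794 RefSeq promoter windows, 1 per gene. The DR1 and DR4 elements, direct repeats of that half-site with 1 or 4 bases between, were in 0 of 46 and in 0.0485% and 0.0112% of all windows. GATAA was in 17 (37.0%) against 25.9%, TGANTCA in 8 (17.4%) against 7.95%, and GGAAG, the core bound by ETS factors such as PU.1 and ERG, in 38 (82.6%) against 71.0%. TGTGGT, the RUNX motif, was in 17.4% against 16.8%, and CACGTG, the E-box of MYC and MAX, in 8.70% against 7.15%. These motifs can overlap one another, and the shares describe only the few regions that lie at an annotated start. The 46 windows and those of all genes were not matched for gene type or base composition. Windows in the shared and WT-only regions were not counted, and no difference was tested.

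The 7536 regions were short and weakly acetylated. Their median width was 351 bp (interquartile range 276 to 481), close to the 331 bp of the WT-only regions and below the 763 bp of shared regions. The authors' fold over background at the H3K27ac peak had a median of 3.20 and ran from 1.66 to 12.5, and the −log10 q had a median of 4.43 and ran from 1.37 to 47.9. Only 589 regions (7.82%) were above the median −log10 q of the whole RXRKO list, which was 8.27. The WT-only regions were similarly weak in the WT list, with a median fold of 3.21 and a median −log10 q of 4.99. The authors' lists end at a q of about 0.05, and give no value for the same region in WT where no peak was called. With peaks of −log10 q of at least 5 in both lists, 5645 regions met the rule, of which 2902 were among the 7536. The other regions of that count had a WT peak below the stricter threshold. With an authors' fold of at least 4, the count was 4857, of which 1124 were members.

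The lists differed in length, with 74287 H3K27ac peaks in WT and 64849 in RXRKO. With the strongest 64849 peaks of each list, there were 9911 RXRKO-only and 10102 WT-only regions. This cut kept the whole RXRKO list and removed WT peaks alone. All 7536 members therefore had to remain, and their retention is no test of them. The distance threshold divided near neighbours: the member nearest to a gene end lay 1001 bp from it, the nearest region left out lay 999 bp away, and 621 further RXRKO-only regions with H3K4me1 in all 4 libraries lay within 1 kb. Requiring H3K4me1 in all 4 libraries left out 577 RXRKO-only distal regions with H3K4me1 in none, 390 with it in 1, 569 in 2 and 843 in 3.

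The regions were spread within and between genes. Inside a gene lay 4455 (59.1%), and 3081 lay between genes. The median distance to a gene end was 28830 bp, and 1577 regions (20.9%) were more than 100 kb from one, against 15.3% of the shared and 14.3% of the WT-only regions. Many lay near a peak of the WT list: 1771 (23.5%) had a WT H3K27ac peak within 1 kb and 3692 (49.0%) within 5 kb, while 721 (9.57%) were over 50 kb from one. In the reverse comparison, 17.1% of the WT-only regions had an RXRKO peak within 1 kb and 44.9% within 5 kb.

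H3K4me1 spread somewhat farther around these regions in RXRKO than in WT. It was measured as the length covered by called peaks in the 4 kb centred on each region, which the rule did not fix beyond requiring a peak in each library. The median covered length was 1118 and 1077 bp in WT replicates 1 and 2, and 1141 and 1380 bp in RXRKO replicates 1 and 2. Both RXRKO medians were above both WT medians, but in replicate 1 by little. At the shared regions the medians were 1321 and 1366 bp in WT and 1317 and 1496 bp in RXRKO, and at the WT-only regions 1076 and 1142 bp in WT and 1027 and 1148 bp in RXRKO. RXRKO replicate 2 was the longest list at all of them, with 133.3 Mb covered in all against 109.8 to 117.8 Mb in the other libraries.

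After each library was centred on its own median, the median log2 difference, RXRKO over WT, was 0.07 at the RXRKO-only regions, -0.0078 at the shared regions and -0.06 at the WT-only regions, against -0.01 over all 80624 H3K27ac regions tested. The difference was 0.04 within replicate 1 and 0.11 within replicate 2 at the RXRKO-only regions, and -0.02 and -0.11 at the WT-only regions, whose coverage in WT was similar. The replicate 1 libraries were run apart from the H3K27ac libraries, which shared a run with replicate 2. Over the RXRKO-only regions, the centred library medians on the log2 scale were -0.16 and -0.26 in WT and -0.11 and -0.06 in RXRKO. Both RXRKO medians lay above both WT medians, and the pooled standard deviation between replicates was 0.06 (n = 2 per genotype).

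**Figure D1:**
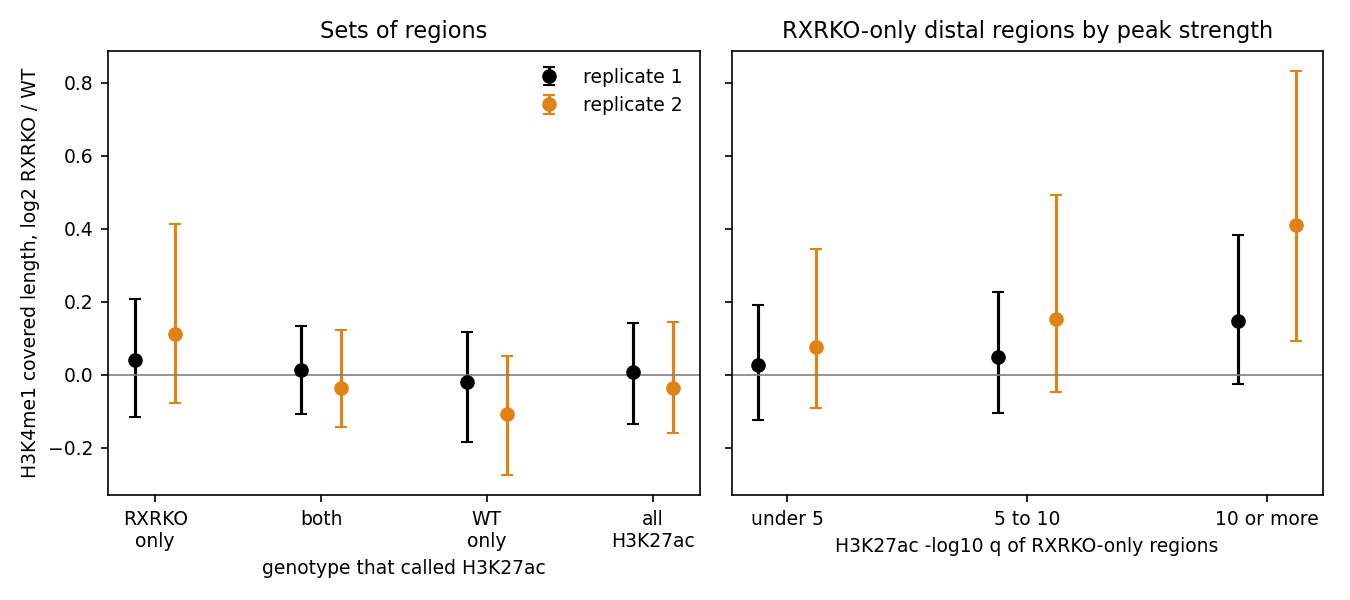
Points show the median and bars the interquartile range of the log2 ratio, RXRKO over WT, of centred H3K4me1 covered length within replicate 1 (black) and replicate 2 (orange). The left panel gives the RXRKO-only, shared and WT-only distal regions and all H3K27ac regions tested, and the right panel the RXRKO-only regions by H3K27ac −log10 q, where the medians rise from 0.03 and 0.08 to 0.15 and 0.41.

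No single region passed the test. In limma with Benjamini-Hochberg adjustment over all regions tested, 0 of the 7536 were called higher and 0 lower at adjusted p under 0.05, with 0% called in either direction among all 80624, and the lowest adjusted p was 0.412. At unadjusted p under 0.05, 729 regions (9.67%) were higher and 87 lower in RXRKO, against 3.35% higher and 2.61% lower over all regions. With the replicate number as a block, these were 929 and 129, again with none called (lowest adjusted p 0.207). With 2 libraries a genotype the test could find little: on simulated data it called 0 of 100 regions changed 2-fold and 2 of 100 changed 4-fold. Without WT replicate 1, 141 of the 7536 were called higher and 0 lower, against 457 higher (0.567%) and 22 lower (0.0273%) of all 80624. Without WT replicate 2, 49 were called higher and 1 lower, against 251 (0.311%) and 8 (0.00992%). In both of these fits the spread comes from the RXRKO pair, and the lone WT library is assumed to vary like it. After centring, both RXRKO libraries were above both WT libraries at 2156 regions (28.6%), against 15.3% of all regions tested, and both were below at 729 (9.67%), against 17.1%.

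Within the RXRKO-only set, the difference in surrounding H3K4me1 was larger at regions with a stronger H3K27ac peak. At the 4634 regions with −log10 q under 5, the median log2 difference was 0.05. It was 0.10 at the 2586 regions from 5 to 10 and 0.26 at the 316 regions of 10 or more. In those 316 regions the median covered length was 954 and 839 bp in WT and 1073 and 1402 bp in RXRKO, and both RXRKO libraries exceeded both WT libraries at 161 (50.9%), against 25.1% of the weakest class. Only 13 of the 316 had both RXRKO libraries lower. Over all regions tested, both RXRKO libraries were above both WT libraries at 15.3%. The rule chose on the RXRKO H3K27ac peak itself, and the other sets were not divided by strength, so these classes are a description.

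The difference was also larger where WT acetylation was far away. At regions with a WT H3K27ac peak within 1 kb, the median log2 difference was -0.0013, and H3K4me1 covered 1662 and 1669 bp in WT and 1656 and 1877 bp in RXRKO. The median was 0.07 with the nearest WT peak at 1 to 5 kb, 0.12 at 5 to 50 kb and 0.24 at over 50 kb. Within replicates 1 and 2 the medians were 0.05 and 0.18 at 5 to 50 kb and 0.11 and 0.37 at over 50 kb, so replicate 2 gave most of the rise. In the farthest class H3K4me1 covered 920 and 823 bp in WT and 1011 and 1394 bp in RXRKO. Both RXRKO libraries were above both WT libraries at 44.8% of that class, against 28.6% of all 7536 and 15.3% of all regions tested. These classes differ in strength too, with a median −log10 q of 4.23 in the nearest and 4.85 in the farthest. Regions inside genes had a median of 0.06 and those between genes 0.09.

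H3K4me3, which the rule did not use, was called at part of the regions. Of the 7536, 4959 (65.8%) had none in either genotype, 1454 (19.3%) had it in RXRKO alone, 52 (0.690%) in WT alone and 1071 (14.2%) in both. Over all 60434 distal H3K27ac regions with H3K4me1 in 4 libraries, 15.7% had it in RXRKO alone and 1.97% in WT alone, so the share in RXRKO alone stood only a little above the background. Shared regions had 17.1% and 1.26%, and WT-only regions 9.92% and 4.60%. With 1 library per genotype there was no test.

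The RXRKO H3K4me3 list was longer, with 58136 peaks against 47835 in WT. With the strongest 47835 peaks of each list, 671 of the RXRKO-only regions (8.90%) had H3K4me3 in RXRKO alone and 105 (1.39%) in WT alone. The same lists gave 8.60% and 4.30% at shared regions and 3.62% and 7.96% at WT-only regions. H3K4me3 in 1 genotype thus leaned to WT at WT-only regions and to RXRKO at RXRKO-only regions, but shared regions leaned to RXRKO too. The share in RXRKO alone was nearly the same at RXRKO-only (8.90%) and shared regions (8.60%), while that in WT alone was lower (1.39% against 4.30%). Whether the marks go together was not tested, with 1 library per genotype. In the full lists, H3K4me3 in RXRKO alone was found at 14.5% of regions with H3K27ac −log10 q under 5, at 24.2% from 5 to 10 and at 49.7% (157 of 316) at 10 or more. H3K4me3 in WT alone was found at 41, 11 and 0 of them. Over all distal regions the full lists gave 15.7% in RXRKO alone. The other sets were not divided by strength, so the rise across classes is a description. The classes also differ in width, with medians of 316, 422 and 651 bp. The call needs an overlap of 1 bp and makes no allowance for width, whose part was not tested.

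**Figure D2:**
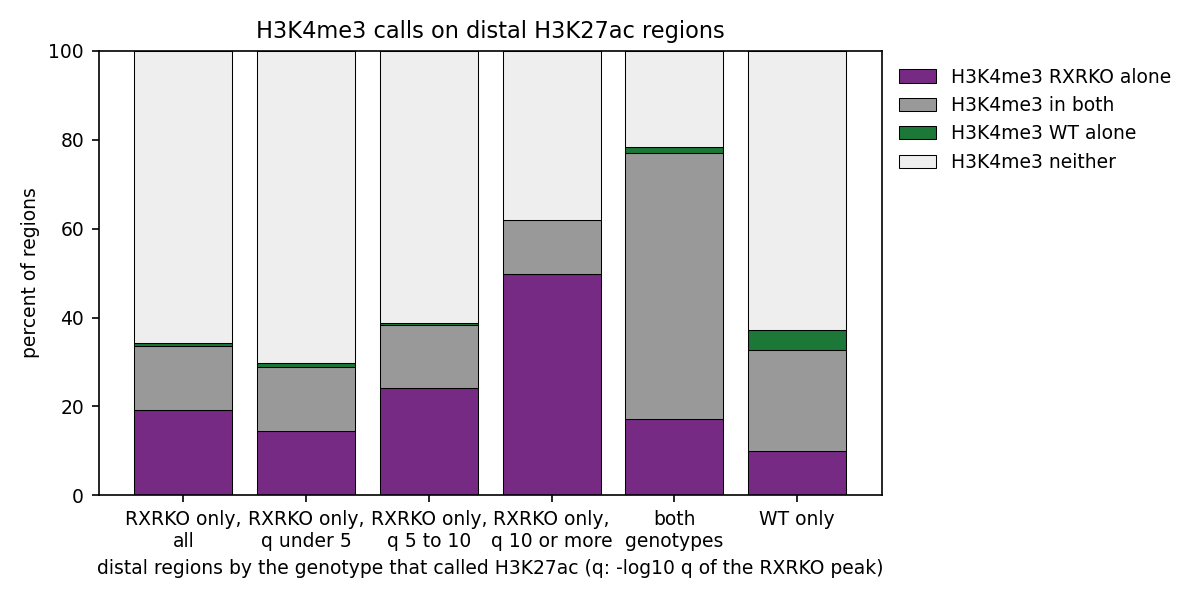
Stacked bars give the percent of distal regions with an H3K4me3 peak in RXRKO alone, both genotypes, WT alone or neither. The first bar is the 7536 RXRKO-only regions, the next 3 divide them by H3K27ac −log10 q, and the last 2 are shared and WT-only regions. H3K4me3 in RXRKO alone rises from 14.5% to 49.7% with the strength of H3K27ac, across classes whose median width was 316, 422 and 651 bp.

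The regions with the highest H3K27ac show how the marks combined. The highest −log10 q was at chr1:85112240-85112719, 2.18 kb outside A530032D15Rik, with an authors' fold of 12.5. The neighbourhood holds near-identical gene copies among which reads may be split, so its value is uncertain. H3K4me1 covered 247 and 457 bp in WT and 277 and 1101 bp in RXRKO, which overlap. H3K4me3 was called in both genotypes.

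The region at chr11:36381454-36382662 lies within Tenm2, which encodes a teneurin adhesion protein, 375 kb from an end of the gene. It was 1209 bp wide with a fold of 7.44. H3K4me1 covered 699 and 375 bp in WT and 1027 and 1926 bp in RXRKO, and no H3K4me3 was called within its 4 kb window in either genotype. The nearest WT H3K27ac peak was 160 kb away. Both RXRKO libraries exceeded both WT libraries, with a log2 difference of 1.24 (adjusted p = 0.631, limma).

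The region at chr7:25901848-25903016 lies within Cyp2b10, a cytochrome P450 gene known in liver as a target of the RXR partner CAR. Its authors' fold was 7.50, and the nearest WT H3K27ac peak was 53.2 kb away. H3K4me1 covered 1136 and 977 bp in WT and 1265 and 1602 bp in RXRKO. H3K4me3 covered 924 bp in RXRKO and none in WT. The H3K4me1 difference was 0.35 (log2, adjusted p = 0.859, limma).

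The region at chr7:64331152-64332646 in Mtmr10, a gene of the myotubularin family, was 1495 bp wide with 1400 bp of H3K4me3 in RXRKO and none in WT. Its WT H3K4me1 differed between replicates, at 2541 and 521 bp, and the RXRKO values of 2234 and 2824 bp straddled the higher one. The region at chr13:64323639-64324404, outside Prxl2c, had 620 bp of H3K4me3 in RXRKO alone and H3K4me1 of 400 and 357 bp in WT against 779 and 1431 bp in RXRKO. Regions at Lgmn, the gene of the lysosomal protease legumain, and near Rhbdl2, a rhomboid protease gene, had 410 and 776 bp of H3K4me3 in RXRKO and none in WT.

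The other 3 of the 10 strongest lay in Eml6, 215 kb from Kif2b and in Enox1, and had no H3K4me3 in either genotype. In the Eml6 region (chr11:29839616-29840266) H3K4me1 covered 220 and 350 bp in WT and 495 and 969 bp in RXRKO. In the region assigned to Kif2b (chr11:91359862-91360720), 511 kb from the nearest WT H3K27ac peak, it covered 673 and 510 bp in WT and 962 and 1055 bp in RXRKO. In Enox1 (chr14:77600991-77602019) it covered 554 and 532 bp in WT and 703 and 1522 bp in RXRKO. Of the 10 strongest regions, those at A530032D15Rik and Mtmr10 overlapped between genotypes in H3K4me1, and the others had both RXRKO libraries above both WT libraries. The share with both above was 50.9% of the 316 regions with −log10 q of 10 or more, 28.6% of all 7536 and 15.3% of all regions tested. The margin could be small: in Lgmn H3K4me1 covered 252 and 238 bp in WT and 266 and 457 bp in RXRKO.

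**Figure D3:**
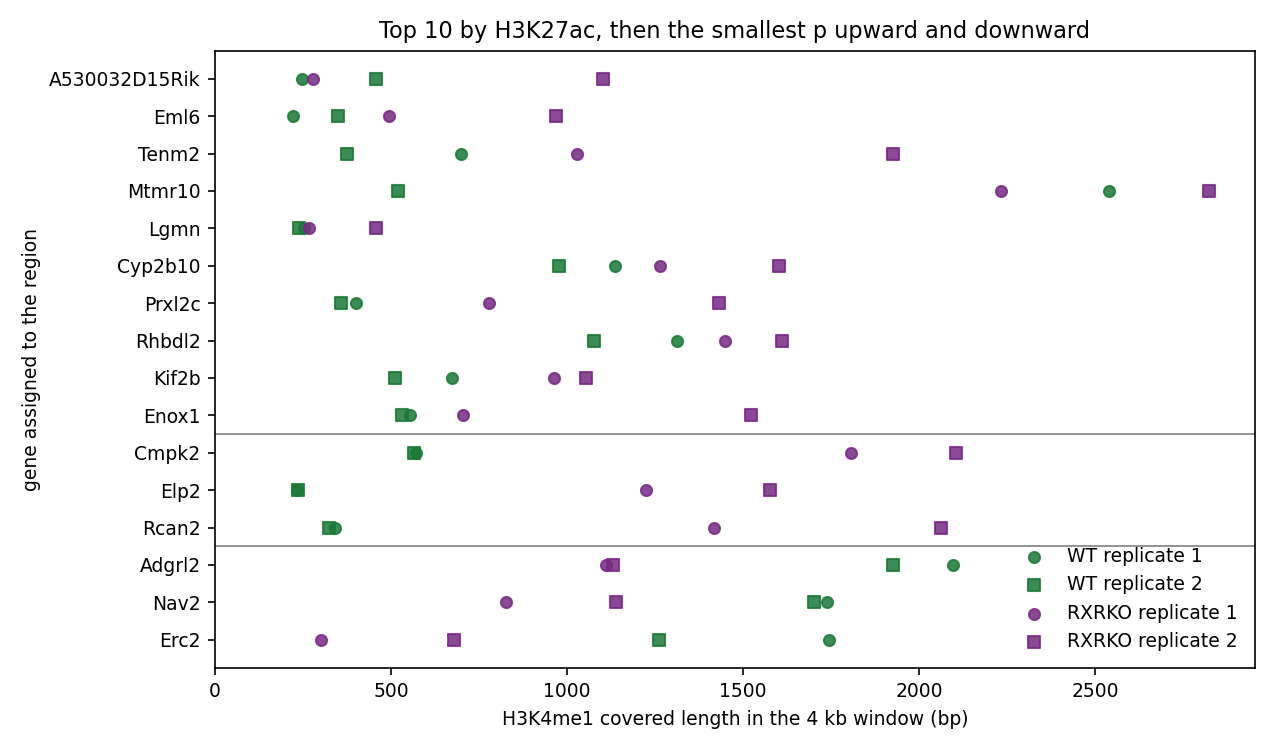
Each point is the H3K4me1 covered length, in bp, in the 4 kb window of one region in one library, in WT (green) and RXRKO (purple), with circles for replicate 1 and squares for replicate 2. The upper block holds the 10 regions with the highest H3K27ac −log10 q, the middle block the 3 with the smallest limma p and higher H3K4me1 in RXRKO, such as Rcan2, and the lowest block the 3 with the smallest p and lower H3K4me1, such as Erc2.

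The smallest limma p-values belonged to regions with H3K4me1 that was much longer in RXRKO. The region at chr12:26718463-26719821, 239 kb from Cmpk2, the gene of a mitochondrial nucleotide kinase induced by interferon, had 570 and 564 bp in WT and 1807 and 2105 bp in RXRKO, a log2 difference of 1.56 (adjusted p = 0.412, limma). It was 193 kb from any WT H3K27ac peak and had 544 bp of H3K4me3 in RXRKO alone. In Rcan2, which encodes a calcineurin regulator, the region at chr17:43991001-43991343 had 341 and 324 bp in WT and 1417 and 2064 bp in RXRKO. In Elp2, a gene of the Elongator complex, the values were 232 and 236 bp against 1223 and 1578 bp.

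In the other direction, the smallest p-values were at Adgrl2, a latrophilin gene, at Nav2 and at Erc2, which encodes a presynaptic scaffold. The region 52.4 kb from Adgrl2 (chr3:149041382-149041653) had 2097 and 1926 bp in WT and 1112 and 1131 bp in RXRKO, a log2 difference of -0.84. The values were 1739 and 1701 bp against 827 and 1138 bp in Nav2 and 1745 and 1261 bp against 301 and 679 bp in Erc2. In each the genotypes did not overlap, though none passed the adjusted test (lowest adjusted p = 0.412, limma). At each region itself H3K27ac was called in RXRKO alone, while H3K4me1 around it was shorter there. However, WT acetylation was close to Adgrl2 and Nav2: a WT H3K27ac peak lay 317 and 356 bp from these regions, inside the 4 kb measured. For Erc2 the nearest such peak was 22.3 kb away. The Nav2 window also held H3K4me3 of both genotypes, over 1440 bp (WT) and 1809 bp (RXRKO).

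The widest region was at chr6:129064563-129066632 near Klrb1f, a gene of the natural killer receptor family, with 2070 bp. Its H3K4me1 was 2767 and 1337 bp in WT and 2798 and 2802 bp in RXRKO. Next were regions 478 kb from Cetn3 (1653 bp), 55.7 kb from D430019H16Rik (1516 bp), in Mtmr10 and 87.0 kb from A1bg (1451 bp). The region assigned to D430019H16Rik had H3K4me1 of 1581 and 1416 bp in WT and 2177 and 2419 bp in RXRKO, and H3K4me3 over 1180 bp in RXRKO alone.

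The regions with the strongest H3K4me3 in RXRKO alone were close to H3K4me3 that WT had too. They lay in Tha1, Anks3, Snx21, Fam171a2 and Riok3, between 1.54 and 4.69 kb from a gene end. In the 4 kb around each, WT H3K4me3 covered from 1146 bp at Tha1 to 1827 bp at Fam171a2, and RXRKO H3K4me3 from 1726 to 1955 bp. The WT peaks in these windows did not reach the region itself.

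Most genes with such a region had few of them. The regions were assigned to 4424 protein-coding genes (20.5%) as the gene around them or the one with the nearest end. Of these, 2777 had 1 and 176 had 5 or more. Genes with a region were long, with a median length of 56.5 kb against 17.3 kb for all genes, and 294 kb where there were 5 or more.

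Among the genes with many regions, Arid1b, which encodes a subunit of the SWI/SNF chromatin remodeller, had 14. It also had 62 shared and 15 WT-only regions, and 7 of its 14 had H3K4me3 in RXRKO alone. Auts2, a gene tied to a Polycomb complex, had 11, and Fgf12, Lrmda, Nfia, Tbl1xr1 and Tlr4 had 10 each. Inside the gene itself lay 6 of the 14 of Arid1b and 8 of the 11 of Auts2. Of 10 each, 9 lay inside Fgf12, 10 inside Lrmda, 4 inside Nfia and 1 inside Tbl1xr1. The rest were assigned by the nearest gene end. The 10 assigned to Tlr4, the lipopolysaccharide receptor, all lay outside the gene, and the strongest was 953 kb away, so that Tlr4 is only the nearest gene. None of these 10 had H3K4me3.

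Fgf12, which encodes an intracellular fibroblast growth factor homologue that binds sodium channels, had 10 RXRKO-only regions, 11 shared and 1 WT-only. At 9 of the 10, both RXRKO libraries had more H3K4me1 than both WT libraries, beside 28.6% of all 7536 and 15.3% of all regions tested. The median log2 difference was 0.33, with a lowest value of 0.09. Fgf12 was 1 of the genes named for having many regions, and the others differed. Some of the 10 lie close enough to share their window, so they are not independent. The strongest (chr16:28630351-28631008) had 518 and 242 bp of H3K4me1 in WT against 1232 and 2632 bp in RXRKO, with H3K4me3 over 334 bp in RXRKO and none in WT. Another, 129 kb outside the gene (chr16:28028070-28028850), had 533 and 282 bp in WT and 1386 and 2075 bp in RXRKO, no H3K4me3, and its nearest WT H3K27ac peak 183 kb away. At the 11 regions of Auts2 the median log2 difference was -0.00094, with both RXRKO libraries above both WT libraries at 2 and below at 3.

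Gene lists were read against the whole: RXRKO-only regions made up 12.5% of all distal regions in the 3 classes. No region of any list was called in H3K4me1 by limma. Over all 7536 regions, both RXRKO libraries were above both WT libraries at 28.6% and below at 9.67%, and H3K4me3 was in RXRKO alone at 19.3%. Among 36 genes of nuclear receptors and their cofactors, 22 had a region, 47 in all, or 13.0% of the list's distal regions. At 8 of the 47 both RXRKO libraries were above both WT libraries and at 7 both were below, against 15.3% and 17.1% of all H3K27ac regions tested. Among 32 targets of RXR heterodimers, 8 had a region, 9 in all (6.57%), among them one near Slc25a20, the mitochondrial carnitine carrier regulated by PPARs. The Slc25a20 region (chr9:108686212-108686800) had H3K4me1 of 1342 and 1483 bp in WT and 1626 and 1738 bp in RXRKO, with H3K4me3 over 352 bp in RXRKO alone.

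Nr1h4, the gene of the bile acid receptor FXR, an RXR partner, had a region at chr10:89527110-89527526 with H3K4me1 of 277 and 203 bp in WT and 363 and 561 bp in RXRKO. One region lay in the deleted gene Rxrb itself (chr17:34033031-34033514). Its H3K4me1 was 1391 and 1791 bp in WT and 580 and 1086 bp in RXRKO, a log2 difference of -0.96 (adjusted p = 0.606, limma), and H3K4me3 was called in both genotypes. Part of that gene is missing in RXRKO, so missing DNA and a lower level of the mark cannot be told apart there.

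The MYC network, 14 genes for MYC and the proteins that pair or compete with it, had 12 regions at 7 genes (12.5%). Both RXRKO libraries were above both WT libraries at 1 of the 12 and below at 2. The shares were 28.6% and 9.67% of all 7536, and 15.3% and 17.1% of all regions tested. The strongest assigned to Myc (chr15:62382308-62382736) lay 392 kb from the gene. It had 578 and 356 bp of H3K4me1 in WT against 473 and 1083 bp in RXRKO, which overlap, and no H3K4me3. At Mga, a repressor that pairs with MAX, H3K4me1 covered 2018 and 1845 bp in WT and 1262 and 1675 bp in RXRKO (chr2:119908653-119909074), with both RXRKO libraries lower. Of 35 genes known as MYC targets, 2 had a region (2.94%), in Odc1, the gene of the first enzyme of polyamine synthesis, and near Ccnd2, which encodes cyclin D2. Near Ccnd2 (chr6:127155379-127155904) H3K4me1 was 244 and 784 bp in WT and 940 and 1115 bp in RXRKO, and a WT H3K27ac peak lay 144 bp away.

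Genes of HSC identity had 75 regions at 22 of 42 genes (12.4%), with both RXRKO libraries above both WT libraries at 16 and below at 8, beside 28.6% and 9.67% of all 7536 and 15.3% and 17.1% of all regions tested. The strongest was near Prdm16, a transcription factor gene needed for HSC maintenance (chr4:154639580-154640593), with H3K4me1 of 2527 and 2281 bp in WT and 2850 and 2982 bp in RXRKO. H3K4me3 covered 1256 bp of its window in WT and 1832 bp in RXRKO. Next was a region 139 kb from Gata3 (chr2:9717937-9718456), with 415 and 419 bp of H3K4me1 in WT, 530 and 749 bp in RXRKO and no H3K4me3. Both had higher values in both RXRKO libraries.

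Among 32 genes of quiescence and cell cycle brakes, 11 had a region, 34 in all (10.4%), and 11 of the 34 had H3K4me3 in RXRKO alone, beside 19.3% of all 7536 and 15.7% of all distal regions, with no test. Smad3, which carries TGF-beta signals, held the strongest, at chr9:63677687-63678166, with 772 and 642 bp of H3K4me1 in WT against 957 and 1090 bp in RXRKO. Genes of the cell cycle and growth had 10 regions at 7 of 26 genes (8.47%). The one in Cdk6, a kinase that opens the G1 phase (chr5:3508448-3509187), had 295 and 203 bp of H3K4me1 in WT against 400 and 654 bp in RXRKO, and H3K4me3 over 748 bp in RXRKO alone.

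Of the lineage lists, lymphoid genes had 50 regions at 14 of 34 genes (10.8%), granulocyte and monocyte genes 5 regions at 3 of 29 genes (4.20%), and erythroid and megakaryocyte genes 4 regions at 4 of 27 genes (3.54%). The lymphoid regions included one in Ikzf1, the gene of IKAROS (chr11:11771607-11771922), with 716 bp of H3K4me3 in RXRKO alone and H3K4me1 of 827 and 1132 bp in WT and 760 and 1079 bp in RXRKO, which overlap. Another lay 412 kb from Ets1 (chr9:33169194-33169695). The most strongly acetylated region assigned to Klf4, a monocyte factor gene, lay 395 kb from it with a log2 H3K4me1 difference of 0.0023, and the one assigned to Irf8 lay 12.4 kb away with a difference of 0.02. The region near Hbb-bt, an adult beta-globin gene, had 1571 and 1981 bp in WT and 1606 and 2183 bp in RXRKO.

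Genes of interferon and inflammation had 27 regions at 14 of 36 genes (13.2%). Both RXRKO libraries were above both WT libraries at 9 of the 27 and below at 3. The shares were 28.6% and 9.67% of all 7536, and 15.3% and 17.1% of all regions tested. The strongest was in Rsad2, the antiviral gene of viperin next to Cmpk2, with H3K4me1 of 1765 and 2006 bp in WT and 1745 and 2486 bp in RXRKO. Chromatin regulators had 30 regions at 13 of 32 genes (12.6%). One of these, 29.8 kb from Chd7, had H3K4me1 of 830 and 815 bp in WT and 938 and 1096 bp in RXRKO. Stromal and endothelial genes had 15 regions at 7 of 20 genes (9.32%), the strongest 185 kb from Emcn and 73.1 kb from Kdr. Genes silent in blood had 2 regions at 2 of 27 genes (6.45%).

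The labelled cell type was checked against its markers. All 11 HSC markers had H3K4me3 within 1 kb of a gene end in both genotypes. Of 4 B cell markers 1 had it in WT and 2 in RXRKO, of 4 T cell markers 1 and 2, of 6 granulocyte and monocyte markers 1 and 1, of 4 erythroid markers 2 and 3, and of 5 endothelial and stromal markers 4 and 4. H3K4me3 also marks promoters that are not transcribed, so these counts do not measure the content of other cells, and their part in the results was not tested. H3K27ac within 1 kb of a gene end was called at 8 of 11 HSC markers in each genotype. In WT and RXRKO it was called at 1 and 1 of the B cell markers and at 2 and 2 of the T cell markers. The granulocyte and monocyte markers had 3 and 2, the erythroid markers 2 and 3, and the endothelial and stromal markers 2 and 3.

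Across chromosomes the share of distal regions that were RXRKO-only ran from 11.0% to 14.1% on the autosomes and was 18.7% on the X chromosome (191 regions), where the WT-only share was 23.9%. Xist, the RNA that coats the inactive X chromosome of females, carried 2 H3K4me3 and 3 H3K27ac peaks in WT and none in RXRKO. It carried 4 and 1 H3K4me1 peaks in WT and RXRKO replicate 2, and none in either replicate 1 library. The sex of the pooled mice is not given, and its part in the X chromosome values was not tested. Without the X chromosome, 7345 regions remained, with a median H3K4me1 difference of 0.07.

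**Figure D4:**
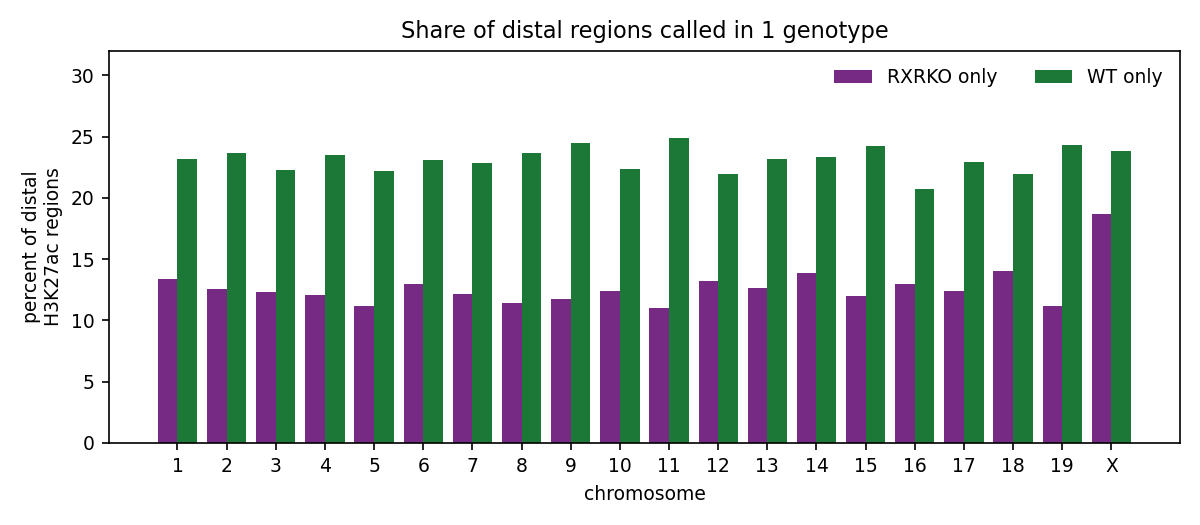
Bars give, for each chromosome, the percent of distal H3K27ac regions with H3K4me1 in all 4 libraries that were called in RXRKO only (purple) and in WT only (green). The RXRKO-only share is 18.7% on the X chromosome and 11.0% to 14.1% on the autosomes.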

How the data were processed

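The data were 8 CUT&RUN peak lists. The submitters' processing notes name cutadapt 1.7.1, Bowtie2 2.2.5, MACS3 and the build mm10. Whether a control library or spike-in was used is not given in these sources. The score deposited for each peak equals 10 times its −log10 q, truncated. The fold deposited by the authors is a ratio of peak height to local background, and the −log10 p and −log10 q were deposited with it. These rank peaks within 1 list only.

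Peaks overlapping by 1 bp were merged, and gene positions came from a RefSeq table (GRCm38.p6) listing 21631 protein-coding genes. H3K4me1 was the length covered by peaks within 2 kb of each region's midpoint, as log2 of the length plus 100 bp, centred on each library's median. Regions with a mean of at least 200 bp (80624, including all 7536) were fitted with limma 3.58.1 in R 4.3.3, without a block, at a Benjamini-Hochberg adjusted p under 0.05. Run tags in the peak names separate the replicate 1 H3K4me1 libraries of both genotypes from all others, so the number marks a batch with both genotypes. Over the 80624 regions, replicate differences in WT and RXRKO correlated with r = 0.211. Scripts were tested on simulated data.

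Named were the 10 regions with the highest H3K27ac −log10 q, the 5 widest, 3 with the smallest p in each direction, 5 with the highest H3K4me3 in RXRKO alone, up to 2 per gene list (some are not reported here) and the genes with the most regions (ties kept). The classes of peak strength and distance, the printed sequences and the second Fgf12 region were chosen after the values were seen. The regions and lists were chosen with earlier results of these data known.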

Additional observations from a re-analysis of the deposited data

How the results depend on the processing

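Among the results on RXRKO-only regions, the median H3K4me1 difference kept its direction at 5 kb on each side, with a pseudocount of 1000 bp, without centring or filter, with the same number of peaks per list and with each library left out (0.03 to 0.11), but was -0.0049 over the region itself, where H3K4me1 peaks covered the whole of 61.5% to 82.1% of regions per library. With the replicate block it was 0.07, with 0 regions called. Leaving out 1 library gave 0 to 141 regions called higher and 0 to 1 called lower. With an authors' fold of at least 4, 4857 regions were RXRKO-only and 7422 WT-only. With equal numbers of H3K4me3 peaks, 671 regions had it in RXRKO alone and 105 in WT alone. A WT H3K27ac peak lay within 1 kb of 1771 regions. Leaving out the X chromosome was chosen after seeing the data. Without replicates of H3K27ac and with unknown depth, a peak missing from 1 list may only have missed the threshold.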
